A study of Homo sapiens with 10 samples.

Results

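The 39 genes described here are the sensors, transcription factors, chaperones, oxidoreductases and degradation factors of the unfolded protein response, taken from a list written by gene name and role, whose rule uses no measured value, although earlier results of these data were known when it was chosen. All 39 were found among the 60168 genes quantified, and 36 had enough counts to be tested. They were measured by sequencing of poly(A) RNA in MCF10A, a non-tumorigenic human mammary epithelial line, transduced with 1 of 3 vectors and grown after antibiotic selection. MCF10A-YAP5SA cells (2 libraries, A and B) carried YAP5SA, an active form of the co-activator YAP whose inhibitory phosphorylation sites are replaced. MCF10A-TRAM2 cells (4 libraries, A to D) carried TRAM2, a protein of the endoplasmic reticulum (ER) membrane. Control cells (4 libraries, A to D) carried the empty vector, and all groups therefore share transduction. By the study's methods the YAP5SA vector carried blasticidin resistance and the TRAM2 vector, of another backbone, puromycin resistance. The backbone and drug of the control are not stated. Effects of backbone and drug therefore cannot be told apart from those of the insert. No source used here says whether a vector's cells came from a single clone or a mixed pool.

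The libraries held 8489854 to 16314438 estimated counts. Control A and C agreed within sampling noise (chi-square per degree of freedom 1.00, against 1.16 to 1.24 for the other control pairs), as did B and D (1.00), although B and D differed slightly over a larger set of genes (1.05, p = 0.021 by chi-square test). Each pair was summed, which gave control 1 and control 2, and from here on n is 2 for MCF10A-YAP5SA, 4 for MCF10A-TRAM2 and 2 for control. The submitters' design text gives 3 biological replicates, which the labels do not identify, so that p-values measure the spread between these samples, which may be technical. That spread was estimated in 1 fit of all groups, so that MCF10A-TRAM2 also enters the p-values of MCF10A-YAP5SA against control. Pairs of MCF10A-TRAM2 libraries differed more (chi-square per degree of freedom 2.07 to 6.12) than the MCF10A-YAP5SA pair (1.21). The data names carry a number that was taken as a sequencing run, and by it MCF10A-YAP5SA was in only the first of 2 runs, so that its comparisons with control and MCF10A-TRAM2 of that run alone are among the alternatives. The vectors were checked by the genes they carry. TRAM2 stood at 390.3, 611.4, 249.9 and 460.3 CPM (library-normalized counts on the usual scale) in MCF10A-TRAM2, against 28.4 and 28.9 in control, and it also stood at 242.1 and 247.1 CPM in MCF10A-YAP5SA. YAP1 stood at 337.2 and 342.2 CPM in MCF10A-YAP5SA, against 186.9 and 186.7 CPM in control.

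The ER folds secreted and membrane proteins, and unfolded chains there are sensed by 3 membrane proteins. IRE1 (gene ERN1) cuts a short intron out of the XBP1 mRNA so that a strong transcription factor is made. PERK (EIF2AK3) phosphorylates the initiation factor eIF2alpha, which slows translation in general while favouring that of ATF4. ATF6 travels to the Golgi, where proteases release its transcription factor domain. CREB3L2, which is processed in the same way as ATF6, is known for inducing genes of the secretory pathway. The targets are chaperones, disulfide-forming enzymes and the factors of ER-associated degradation (ERAD), which retrieves misfolded proteins for the proteasome. Secretory and matrix-producing cells make much use of these genes.

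In MCF10A-YAP5SA cells the genes did not move as a block. ERN1, EIF2AK3 and CREB3L2, 3 ERAD factors, the co-chaperone DNAJB9 and the oxidase ERO1B were higher than in control. Of the targets in the PERK arm, PPP1R15A, a phosphatase subunit, was higher and TRIB3 and ASNS were lower. None of the 5 chaperones of the list was called. Of the 36 genes tested, 9 rose and 2 fell, and 25 did not pass both thresholds (adjusted p below 0.05, and a log2 fold change beyond 0.5 in either direction). Of all 15768 genes tested, 29.4% were called in this comparison (15.3% higher and 14.1% lower), so that the 11 of 36 called here lie near the share of all genes. The median log2 fold change of the 36 was 0.15, where that of all genes was -0.01. At the adjusted p alone, 17 of the 36 were higher and 4 lower (48.7% of all genes passed in either direction), and most of the further genes had changes well under the minimum fold.

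**Figure D1:**
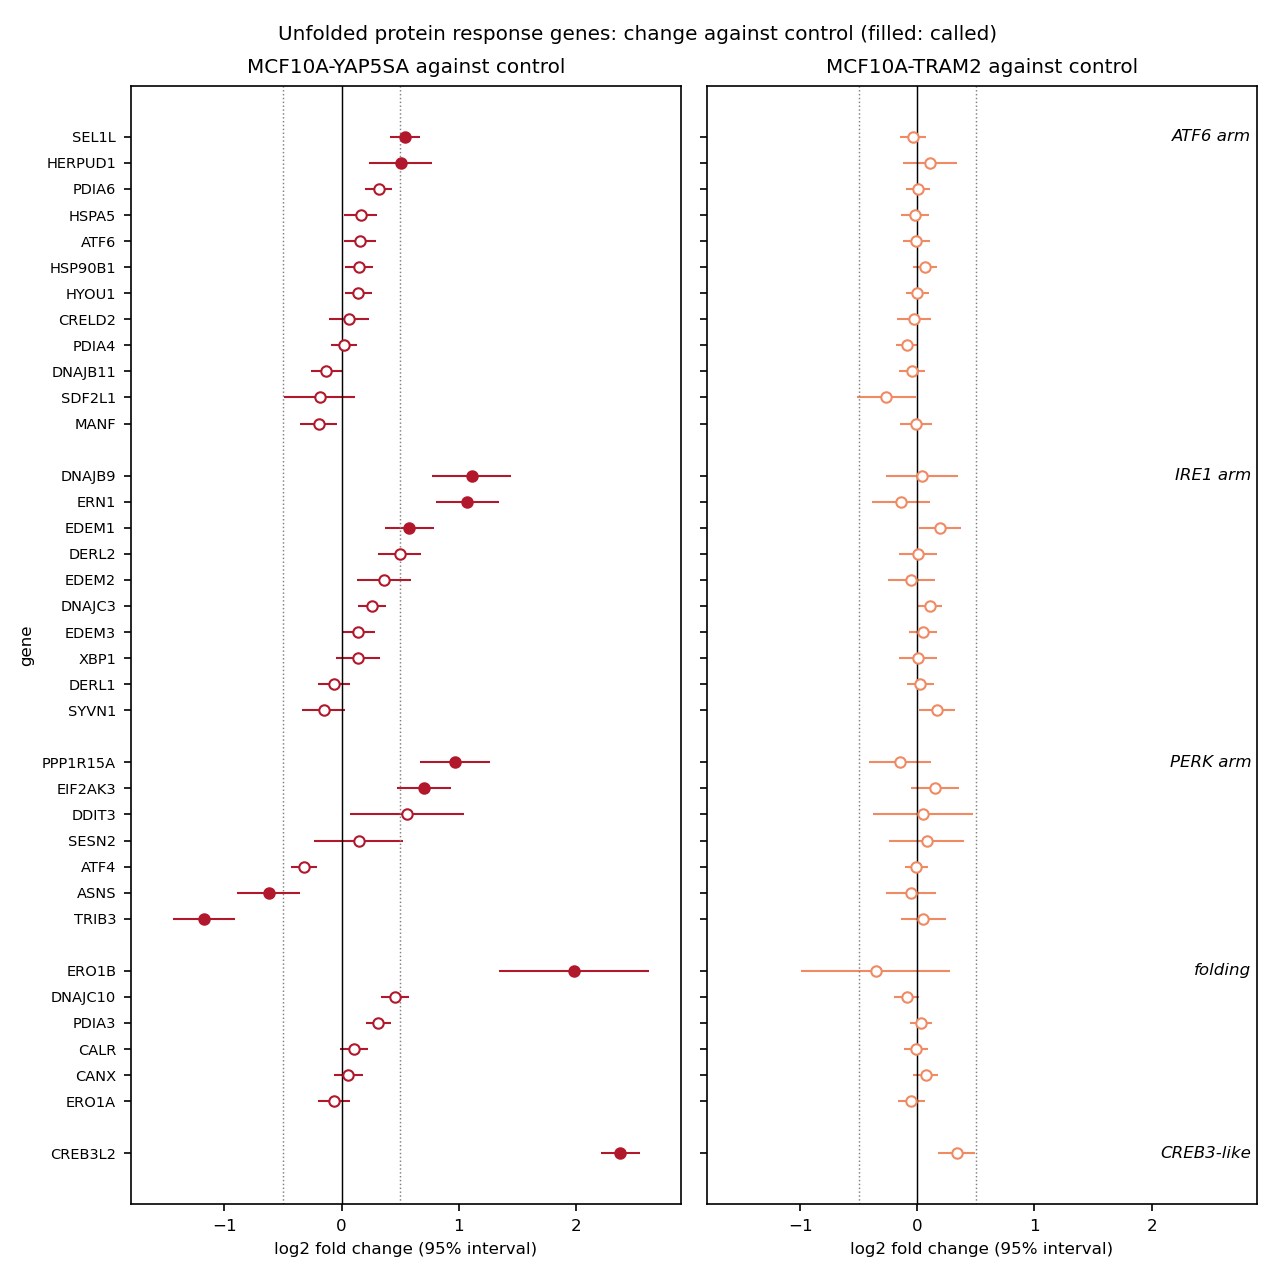
Log2 fold change against control of the 36 genes tested, in MCF10A-YAP5SA (left) and MCF10A-TRAM2 (right), with 95% intervals, grouped by arm of the response. Filled points passed the adjusted p of 0.05 and lay beyond the dotted lines at -0.5 and 0.5; 11 did so on the left and none on the right.

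Of the sensors, ERN1 and EIF2AK3 were higher in MCF10A-YAP5SA and ATF6 was not called. ERN1 (chromosome 17, 62116440 to 62208179 in GRCh37) stood at 19.8 and 19.9 CPM in MCF10A-YAP5SA, at 8.57, 8.97, 8.48 and 8.33 CPM in MCF10A-TRAM2 and at 8.28 and 10.7 CPM in control. Both MCF10A-YAP5SA libraries lay above every other sample, and against control the gene gained 1.07 on the log2 scale (adjusted p = 5.9e-06, standard error 0.12). Such a lack of overlap, here and below, was common with so few samples. Of all genes, 37.3% lay higher without overlap in MCF10A-YAP5SA against control, and 31.4% against MCF10A-TRAM2. EIF2AK3 stood at 30.8 and 30.7 CPM in MCF10A-YAP5SA, at 19.96, 24.51, 20.04 and 19.31 CPM in MCF10A-TRAM2 and at 19.6 and 18.1 CPM in control. Here too both MCF10A-YAP5SA libraries lay above every other sample, and the log2 fold change was 0.71 (adjusted p = 7.9e-05, standard error 0.11). That holds for the sum of coding and non-coding transcripts of EIF2AK3. Its coding transcript EIF2AK3-201 had 1.07 and 1.04 TPM (scaled by transcript length) in MCF10A-YAP5SA. In MCF10A-TRAM2 it had 1.14, 1.44, 0.24 and 0.77 TPM, so that this transcript did not lie above every other sample. ATF6 stood at 60.1 and 58.1 CPM in MCF10A-YAP5SA, against 52.9 and 53.2 CPM in control, a log2 fold change of 0.16 (95% interval 0.02 to 0.29, adjusted p = 0.056).

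CREB3L2 showed the largest rise of the 36 genes in MCF10A-YAP5SA against control, and the second largest, after ERO1B, against MCF10A-TRAM2. The gene (chromosome 7, 137559725 to 137686832 in GRCh37) stood at 203.1 and 199.4 CPM in MCF10A-YAP5SA, at 49.2, 55.0, 46.6 and 44.4 CPM in MCF10A-TRAM2 and at 38.4 and 38.9 CPM in control. Each MCF10A-TRAM2 library lay above both control samples and far below MCF10A-YAP5SA. Of all genes, 10.4% lay higher without overlap in MCF10A-TRAM2 against control. The log2 fold change was 2.38 (adjusted p = 1.3e-11, standard error 0.08) in MCF10A-YAP5SA against control and 2.05 (adjusted p = 4e-12) against MCF10A-TRAM2. Its relative CREB3L1, known for driving collagen secretion in osteoblasts of mice, gave 3 counts over the MCF10A-YAP5SA libraries, 3 over the MCF10A-TRAM2 libraries and 2 over control, too few for a fold.

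YAP acts on DNA through TEAD factors, whose usual site is GGAATG. The promoters of all genes with a RefSeq entry were searched for it on both strands. Among these promoters (GRCh38.p14, from 250 bases before to 50 after the start), 36 of the 39 genes had an entry. The site was held by 3 of the 36 (ERN1, CREB3L2 and CREB3L1), a lower share than the 16.7% of all 27305 genes with an entry. The other genes called higher in MCF10A-YAP5SA against control did not hold an exact match in this window. Sites elsewhere were not searched, although the study places most YAP-bound regions in enhancers. The match is a description of the sequence and shows no binding. Capitals mark the site, on the strand of the gene, in ERN1 at chr17:64130146-64130171 (minus strand) and in CREB3L2 at chr7:138002225-138002250 (minus strand).
ERN1: tatagggccgGGAATGggggtgccgc
CREB3L2: tccccggctaCATTCCaaggcgtggg

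The mRNA of XBP1, the target of IRE1, was not called in either comparison with control. It stood at 57.2 and 61.9 CPM in MCF10A-YAP5SA, at 48.0, 59.3, 52.7 and 56.7 CPM in MCF10A-TRAM2 and at 55.2 and 52.9 CPM in control, a log2 fold change of 0.14 in MCF10A-YAP5SA against control (95% interval -0.05 to 0.33, adjusted p = 0.21). IRE1 removes 26 bases of the coding sequence, which shifts the reading frame. The intron lies on chromosome 22 from 29192116 to 29192141 in GRCh37, and it is shown in capitals between 30 bases on each side, as the annotation places it.
XBP1: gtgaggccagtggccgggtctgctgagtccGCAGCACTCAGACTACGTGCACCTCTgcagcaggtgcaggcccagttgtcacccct

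The annotation used for quantification lists the spliced and the unspliced form as separate transcripts, so that their estimated counts give a share of the spliced form. The spliced form received 229.7 and 256.3 of the 439.7 and 472.8 counts of both forms in MCF10A-YAP5SA, or 52.2% and 54.2%. The shares were 51.4%, 58.6%, 46.3% and 48.4% in MCF10A-TRAM2 and 50.3% and 45.6% in control. The means were 53.2% ± 1.4 (SD, n = 2) in MCF10A-YAP5SA, 51.2% ± 5.4 (SD, n = 4) in MCF10A-TRAM2 and 48.0% ± 3.3 (SD, n = 2) in control. MCF10A-YAP5SA lay 5.2 percentage points above control (two-sided exact permutation p = 0.33, the smallest that 2 against 2 samples allow), and MCF10A-TRAM2 lay 3.2 points above it (exact permutation p = 0.53, where 0.067 is the smallest possible). These shares are a weak measure of splicing. Both forms together held only part of the gene's counts, 439.7 of 680.0 in MCF10A-YAP5SA A and 460.4 of 859.0 in MCF10A-TRAM2 B. The rest went to other listed transcripts, which were assigned to neither form. The spliced form is listed with 1131 bases and the unspliced form with 1850, so that the division depends on how reads fall outside the intron, and no count of reads across the splice site was made.

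The chaperones were among the most abundant of the 39 genes and changed little. HSPA5 (BiP), the Hsp70 chaperone that holds the sensors inactive and is the usual marker of ER stress, stood at 731.5 and 725.3 CPM in MCF10A-YAP5SA, at 701.2, 631.4, 642.4 and 593.7 CPM in MCF10A-TRAM2 and at 652.4 and 649.2 CPM in control. Both MCF10A-YAP5SA libraries lay above the rest, but the log2 fold change of 0.16 (95% interval 0.02 to 0.30, adjusted p = 0.051) was far from the minimum of 0.5. HSP90B1 (GRP94) gave 0.15 and HYOU1, which exchanges the nucleotide of HSPA5, 0.14, and both passed the adjusted p (0.037 each) but not the minimum fold. The lectin chaperones CALR and CANX gave 0.11 and 0.06 on the same scale, with adjusted p of 0.14 and 0.42. CALR stood at 1329 and 1300 CPM in MCF10A-YAP5SA, at 1130 to 1261 CPM in MCF10A-TRAM2 and at 1202 and 1241 CPM in control. The upper ends of the 95% intervals in MCF10A-YAP5SA against control ran from 0.18 for CANX to 0.30 for HSPA5.

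The co-chaperones split. DNAJB9 (ERdj4), a J-domain partner of HSPA5 that represses IRE1 and is itself a target of XBP1, stood at 19.2 and 20.4 CPM in MCF10A-YAP5SA, at 10.1, 11.7, 7.69 and 8.33 CPM in MCF10A-TRAM2 and at 9.15 and 9.16 CPM in control. It gained 1.11 on the log2 scale (adjusted p = 3.9e-05, standard error 0.16), and no other sample reached the MCF10A-YAP5SA libraries. DNAJC3 (p58IPK), which also inhibits PERK, reached 0.26 (adjusted p = 0.0016), under the minimum fold. DNAJB11, SDF2L1 and MANF, all targets of ATF6, had values of -0.13, -0.19 and -0.20, and none was called.

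Of the 7 oxidoreductases, which form and rearrange disulfide bonds, only ERO1B was called. ERO1B (chromosome 1, 236377981 to 236445319 in GRCh37), the paralog of ERO1A that is known from pancreas, stood at 4.54 and 5.27 CPM in MCF10A-YAP5SA, at 0.745, 1.24, 1.09 and 0.757 CPM in MCF10A-TRAM2 and at 1.37 and 1.08 CPM in control. The log2 fold change was 1.99 (adjusted p = 6.7e-05, standard error 0.30), from the lowest level of any gene of the 36. ERO1A, at 180.7 and 179.6 CPM in MCF10A-YAP5SA against 192.9 and 183.9 CPM in control, had a log2 fold change of -0.06 (95% interval -0.20 to 0.07). DNAJC10 (ERdj5), a reductase that opens disulfides before degradation, reached 0.46 on the log2 scale (adjusted p = 1e-05), just under the minimum fold. PDIA6 and PDIA3 had 0.32 and 0.31, and CRELD2 and PDIA4 had 0.06 and 0.02. PDIA3 and HSP90B1 have processed pseudogenes with which reads can be shared, so that their counts are less certain. Estimated counts of other members, among them HSPA5, CALR, ATF4 and ASNS, were not whole either. Some of their reads were therefore shared with other genes too, to an extent that was not measured.

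Of 8 ERAD factors tested, SEL1L, EDEM1 and HERPUD1 were called higher and none was called lower (15.3% of all genes were higher), and the median log2 fold change of the 8 was 0.43. SEL1L, the scaffold of the retrotranslocation complex, stood at 108.0 and 101.5 CPM in MCF10A-YAP5SA, at 68.3 to 73.5 CPM in MCF10A-TRAM2 and at 70.6 and 73.3 CPM in control (log2 fold change 0.54, adjusted p = 2.8e-06). EDEM1, a mannosidase-like protein that marks glycoproteins for disposal, stood at 105.9 and 102.3 CPM in MCF10A-YAP5SA, at 75.7, 93.1, 74.2 and 75.7 CPM in MCF10A-TRAM2 and at 70.0 and 69.3 CPM in control (log2 fold change 0.58, adjusted p = 0.00032). HERPUD1, which organizes the complex in the membrane, stood at 30.5 and 29.1 CPM in MCF10A-YAP5SA, at 22.9, 27.1, 20.7 and 20.01 CPM in MCF10A-TRAM2 and at 20.1 and 21.9 CPM in control (log2 fold change 0.51, adjusted p = 0.0041). Each of these calls was lost under some alternative. SEL1L was at 0.49 without a filter on low counts, the EDEM1 call was lost with counts scaled by transcript length (0.36, adjusted p = 0.40), and the HERPUD1 call was lost under 5 alternatives at 0.43 to 0.48, including without MCF10A-YAP5SA A (0.48) and without control 1 (0.45).

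None of the other ERAD factors was called. DERL2, a membrane rhomboid-like protein, reached 0.49 on the log2 scale (adjusted p = 0.00028) and passed the minimum under 8 alternatives, at 0.50 to 0.52. EDEM2 and EDEM3 had 0.36 and 0.14. SYVN1 (HRD1), the ubiquitin ligase that SEL1L holds, had -0.15 (adjusted p = 0.16), and DERL1 had -0.06. DERL3, an ERAD factor of secretory cells, had 0 counts in every library, which allows up to 0.121 CPM in MCF10A-YAP5SA, 0.0498 CPM in MCF10A-TRAM2 and 0.0742 CPM in control (a floor of 3 counts over each group, for counting error only).

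**Figure D2:**
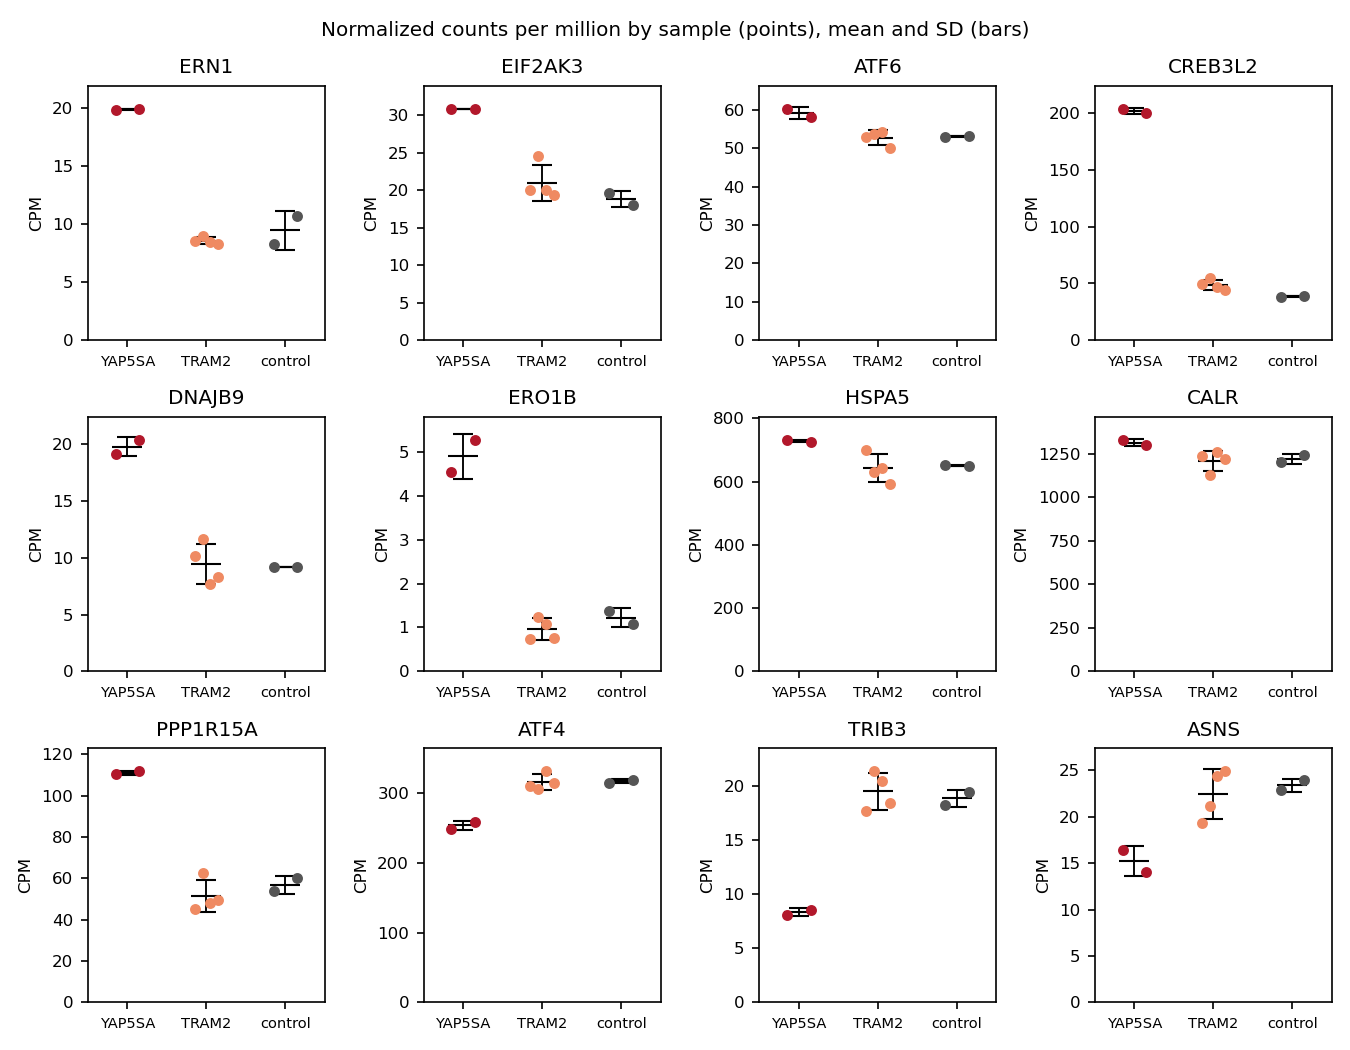
CPM of 12 of the genes, by sample, in MCF10A-YAP5SA, MCF10A-TRAM2 and control, on axes that start at 0. Points are samples and bars are mean and SD (n = 2, 4 and 2); ERN1, CREB3L2, DNAJB9, ERO1B and PPP1R15A stand apart in MCF10A-YAP5SA on the high side and TRIB3 on the low side, while HSPA5 and CALR lie close together in all groups.

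The genes of the PERK arm moved in both directions. PPP1R15A (GADD34), which recruits the phosphatase that reverses the phosphorylation of eIF2alpha, stood at 110.5 and 111.9 CPM in MCF10A-YAP5SA, at 45.1, 62.5, 48.3 and 49.6 CPM in MCF10A-TRAM2 and at 53.8 and 60.01 CPM in control, a log2 fold change of 0.97 (adjusted p = 0.00026, standard error 0.13). TRIB3 (chromosome 20, 343479 to 378203 in GRCh37), a pseudokinase that binds ATF4 and dampens it, stood at 8.07 and 8.59 CPM in MCF10A-YAP5SA, at 17.7, 21.4, 20.5 and 18.5 CPM in MCF10A-TRAM2 and at 18.3 and 19.5 CPM in control. The log2 fold change of -1.18 (adjusted p = 1.8e-06, standard error 0.12) was the largest fall of the 36.

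ASNS, which makes asparagine and is a classical ATF4 target, stood at 16.4 and 14.1 CPM in MCF10A-YAP5SA, at 19.3, 21.2, 24.4 and 24.9 CPM in MCF10A-TRAM2 and at 22.9 and 23.9 CPM in control. It fell by 0.62 on the log2 scale (adjusted p = 0.00088), but the value was -0.49 when only the first run was used and -0.32 (adjusted p = 0.15) with length-scaled counts. ATF4 itself stood at 248.8 and 258.0 CPM in MCF10A-YAP5SA, against 314.6 and 319.1 CPM in control. Its log2 fold change of -0.32 had an adjusted p of 0.00013, under the minimum fold, and its activity, which rests on translation, was not measured here.

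DDIT3 (CHOP), the transcription factor linked to death under prolonged stress, stood at 5.89 and 6.27 CPM in MCF10A-YAP5SA, at 4.77, 4.14, 4.66 and 3.54 CPM in MCF10A-TRAM2 and at 3.25 and 5.06 CPM in control. The control samples were far apart, and the log2 fold change of 0.56 was not called (adjusted p = 0.056). Without control 2 it was 0.91 (adjusted p = 0.014) and without control 1 it was 0.27. SESN2, a stress-induced regulator of mTORC1, had 0.15 (adjusted p = 0.53). CHAC1, which degrades glutathione, gave 9 counts over the MCF10A-YAP5SA libraries, 32 over the MCF10A-TRAM2 libraries and 24 over control. Its ratio to control was 0.611 in MCF10A-YAP5SA (95% counting interval 0.25 to 1.36) and 0.894 in MCF10A-TRAM2 (0.51 to 1.59).

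Promoter elements were set beside these changes. The ER stress response element (CCAAT and CCACG with 9 bases between them, on either strand), bound by ATF6 with NF-Y, was found in 8 of the 36 genes with a RefSeq entry and in 0.0916% of all genes with one. The 8 genes were CALR, CANX, CRELD2, ERO1B, HSP90B1, HSPA5, PDIA6 and XBP1, of which ERO1B was called in MCF10A-YAP5SA and the others had log2 fold changes of 0.06 to 0.32. The shorter ERSE-II (ATTGG and CCACG with 1 base between them) was found in HERPUD1, HYOU1 and SDF2L1 (0.0696% of all genes), with log2 fold changes of 0.51, 0.14 and -0.19. The element TGACGTGG, which XBP1 and ATF6 bind, was found in DNAJC10 and HYOU1 (0.927%); in HYOU1 it overlaps an ERSE-II. The ATF4 element TGATGNAA was found in ASNS, CHAC1, CREB3L2 and HERPUD1 (4.46%). DERL1, DERL3 and PDIA3 were not matched. Stretches from 4 genes that carry an element are shown, with the fixed letters of the motif in capitals: HSPA5 at chr9:125241381-125241419 (minus strand) and ERO1B at chr1:236282173-236282208 (minus strand) carry the same element and had log2 fold changes of 0.16 and 1.99, HERPUD1 at chr16:56932015-56932045 (plus strand) carries the short one, and ASNS at chr7:97872459-97872486 (minus strand) the ATF4 element, all in GRCh38.p14.
HSPA5: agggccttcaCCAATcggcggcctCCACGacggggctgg
ERO1B: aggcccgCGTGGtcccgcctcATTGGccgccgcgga
HERPUD1: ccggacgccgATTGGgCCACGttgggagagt
ASNS: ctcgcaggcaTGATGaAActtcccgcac

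MCF10A-TRAM2 cells were set against control in the same way. None of the 36 genes was called in MCF10A-TRAM2 against control by edgeR, nor by DESeq2, where 0.0571% of all genes were called by edgeR. Their median log2 fold change was 0.00, and 5 had an unadjusted p under 0.05 (12.6% of all genes did). These were CREB3L2 (0.34, adjusted p = 0.095), EDEM1 (0.19), SYVN1 (0.17), DNAJC3 (0.11) and SDF2L1 (-0.27). Over the alternatives the CREB3L2 value was 0.27 to 0.43, always under the minimum fold, although its adjusted p fell below 0.05 in some. HSPA5 had a log2 fold change of -0.02 (95% interval -0.14 to 0.10), ERN1 had -0.14 (-0.38 to 0.11), XBP1 0.01 (-0.15 to 0.16) and DDIT3 0.05 (-0.38 to 0.48). The widest of the 36 intervals was that of ERO1B (-0.35, -0.99 to 0.28), whose value ranged from -1.38 with length-scaled counts to 0.14 in the first run alone and was called in neither. TRAM2 itself did not pass there (log2 fold change 3.90, adjusted p = 0.072), with its 4 libraries at 249.9 to 611.4 CPM.

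Set against MCF10A-TRAM2, MCF10A-YAP5SA again had 9 genes higher and 2 lower (of all genes, 29.4% were called, 14.9% higher and 14.6% lower). CREB3L2, ERO1B (2.34), ERN1 (1.21), PPP1R15A (1.11), DNAJB9 (1.07), SEL1L (0.58) and EIF2AK3 (0.55) were called in both comparisons, as were TRIB3 (-1.23) and ASNS (-0.57). DNAJC10 (0.55, adjusted p = 2.9e-07) and DDIT3 (0.51, adjusted p = 0.047) were called here in place of EDEM1 (0.39) and HERPUD1 (0.40), and the DDIT3 call was lost under 11 of 17 alternatives. The comparisons share the MCF10A-YAP5SA libraries.

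Genes around the 39 were taken from 9 further lists. In MCF10A-YAP5SA against control, where 15.3% of all genes were higher and 14.1% lower, the vesicle coat and CREB3 family list had the highest share of rising genes. Of its 20 tested genes 12 rose and 1, CREB3L4, fell, with a median log2 fold change of 0.52, close to the minimum fold. Against MCF10A-TRAM2, 8 of the 20 were higher and 1 lower in MCF10A-YAP5SA (median 0.46), where 14.9% of all genes were higher. SEC23A, a subunit of the COPII coat that carries cargo out of the ER, averaged 167.2 ± 2.3 CPM (SD, n = 2) in MCF10A-YAP5SA and 80.1 ± 0.92 CPM (SD, n = 2) in control (log2 fold change 1.06), and SEC31A (0.68), COPG1 (0.62) and the cargo receptor subunit MCFD2 (0.64) rose as well. Of 33 other ER folding genes 6 rose and none fell (median 0.24), among them the calcium-binding CALU (1.21), the disulfide isomerase P4HB (0.70), SIL1 (0.75) and RCN2 (0.55). Of 27 other ERAD genes 4 rose and 1 fell (median 0.25): the ubiquitin-conjugating UBE2J1 had 1.54, ERLEC1 0.62 and NGLY1 0.61, and the J-domain protein DNAJB12 -1.03. Of 21 partners, regulators and substrates of IRE1 and ATF6, 5 rose and 2 fell (median 0.14), with SCARA3, whose mRNA IRE1 is known to cut, at 4.73, MAPK8 (JNK1) at 1.06, MAP3K5 (ASK1) at -1.41 and ZBTB7B at -2.12.

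**Figure D3:**
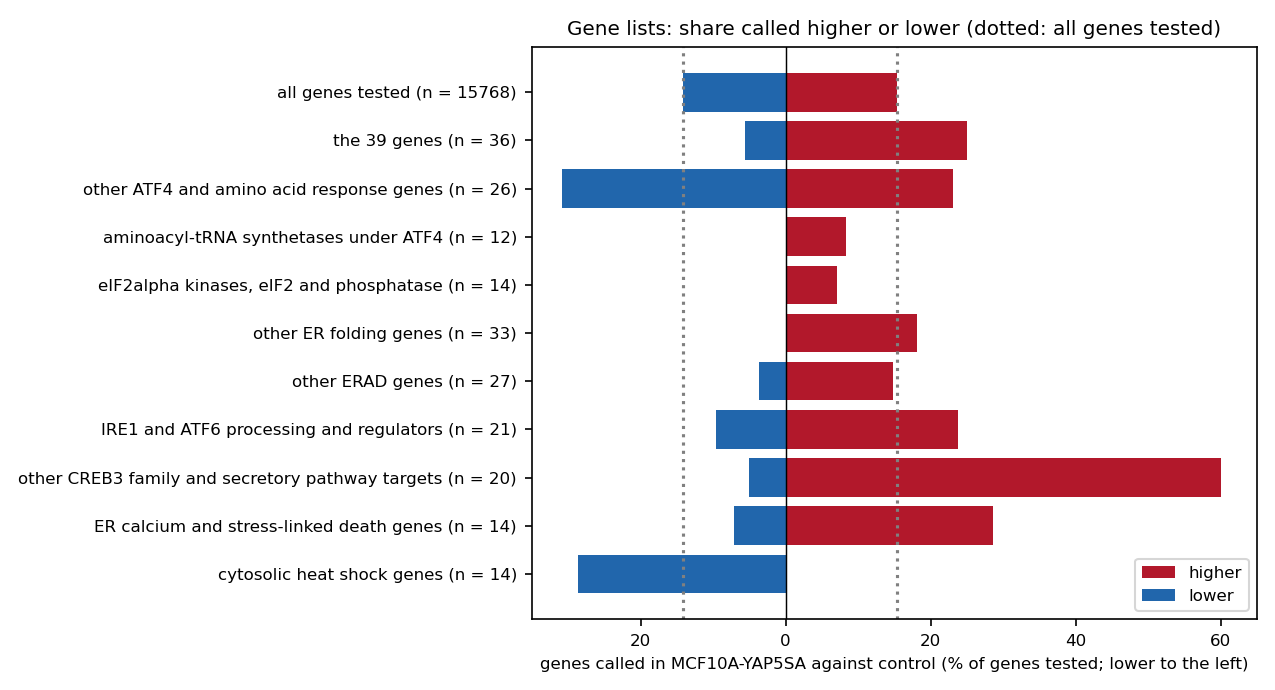
Share of the genes tested in each list that were called higher (right of 0) or lower (left of 0) in MCF10A-YAP5SA against control, in percent; n is the number tested. Dotted lines mark all 15768 genes, at 15.3% higher and 14.1% lower. The secretory pathway list, with 12 of 20 higher, reaches furthest to the right. The list labelled cytosolic heat shock genes also holds mitochondrial genes.

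The ATF4 side of the response was mixed beyond the 39 genes too. Of 26 other ATF4 and amino acid response genes 6 rose and 8 fell (median -0.09). STC2, a secreted glycoprotein, averaged 232.4 ± 3.2 CPM in MCF10A-YAP5SA and 52.3 ± 0.45 CPM in control (SD, n = 2 each), and the cystine transporter SLC7A11 averaged 76.9 ± 3.2 CPM in MCF10A-YAP5SA and 16.8 ± 0.53 CPM in control. DDIT4, an inhibitor of mTORC1, averaged 63.3 ± 3.0 CPM in MCF10A-YAP5SA and 316.5 ± 3.8 CPM in control, and the transcription factor CEBPB 35.4 ± 1.1 CPM in MCF10A-YAP5SA and 169.1 ± 2.0 CPM in control. Of 12 aminoacyl-tRNA synthetases SARS rose (0.63) and the other 11 were not called, with a median of -0.26. Only 3 of the 12 were above 0, and 11 had an unadjusted p under 0.05, where 53.9% of all genes did. Of 14 genes of eIF2, its kinases and its phosphatase 1 rose, EIF2AK4 (GCN2, the sensor of amino acid shortage), at 1.12. Of 14 ER calcium and stress-linked death genes 4 rose and 1 fell (median 0.24), with the calcium channels ITPR1 and ITPR2 at 1.16 and 0.63, PMAIP1 (NOXA) at 0.99 and BCL2L11 (BIM) at -1.42. Of 14 heat shock genes that act outside the ER none rose and 4 fell (median -0.30): HSPB1 (-1.20), HSPH1 (-0.65), HSPE1 (-0.59) and HSPA1B (-1.29). HSPE1 is mitochondrial, as is HSPD1 of the same list. HSPA1B has a near-identical copy, so that its counts are uncertain.

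In MCF10A-TRAM2 against control no gene of these 9 lists was called. The heat shock list had 8 of its 14 genes at an unadjusted p under 0.05, where 12.6% of all genes were, with a median log2 fold change of -0.13 and 2 of the 14 above 0. Of the most abundant genes in each list, SLC7A5, an amino acid transporter, had the lowest log2 fold change (-0.36) and ITPR3, a calcium channel, the highest (0.19). SLC38A2, EPRS, LARS, EIF2S2, EIF2S3, CALU, P4HB, VCP, FAF2, TMBIM6, TMED2, MCFD2, SEC31A, ATP2A2, HSP90AB1 and HSP90AA1 lay between 0.16 (SLC38A2) and -0.22 (HSP90AA1). The lowest adjusted p of these was 0.064, for SLC7A5.

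Cell type markers moved with the YAP5SA comparison. The basal keratins KRT5 and KRT14 that define the line's type were present in every sample, at 845.7 to 1681 and 51.1 to 115.8 CPM. Of 6 markers of basal-type mammary epithelium 4 fell (KRT5, TP63, CDH1 and EPCAM) and 1 rose (KRT17) in MCF10A-YAP5SA against control, and their summed level was 1461 and 1514 CPM in MCF10A-YAP5SA, 2321 to 2619 CPM in MCF10A-TRAM2 and 2511 and 2540 CPM in control. In bulk RNA fewer cells of a type and less RNA per cell cannot be told apart, and the part of this shift in the results above was not tested. The sum of 7 fibroblast markers was 1.55 to 1.77 CPM in MCF10A-YAP5SA, 2.97 to 3.87 CPM in MCF10A-TRAM2 and 3.43 to 4.26 CPM in control. Its difference came mostly from COL1A1 (means of 0.77 CPM in MCF10A-YAP5SA and 3.30 CPM in control), the only 1 with enough counts to be tested. The rest moved in both directions at low levels. The sum of 4 endothelial markers was 2.01 to 2.19 CPM in MCF10A-YAP5SA, 11.99 to 17.4 CPM in MCF10A-TRAM2 and 9.64 to 10.4 CPM in control. That difference came mostly from PECAM1 (means of 0.25 CPM in MCF10A-YAP5SA and 7.70 CPM in control). Leukocyte markers (36.3 to 55.2 CPM over all samples) came nearly all from CD68, with CD3E at 0. Plasma cell markers (185.2 to 226.2 CPM) came nearly all from SDC1, which epithelia also express, with IRF4 and TNFRSF17 at 0. Luminal markers summed to 81.1 and 86.8 CPM in MCF10A-YAP5SA, 43.9 to 46.2 CPM in MCF10A-TRAM2 and 41.0 and 40.7 CPM in control, with 1 of 4 tested higher and 3 lower in MCF10A-YAP5SA. The higher 1 was GATA3 (means of 79.5 CPM in MCF10A-YAP5SA and 19.8 CPM in control).

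Levels of different genes were compared per length, in TPM summed over a gene's transcripts. HSP90B1, CANX and CALR stood highest in control, at 933.8 ± 12.8, 889.2 ± 12.9 and 820.6 ± 16.3 TPM (SD, n = 2), and HSPA5 at 78.8 ± 1.4 TPM. Short transcripts weigh on such sums. Those under 600 bases made up 56.9% of the TPM of HSP90B1 and 83.2% of that of CANX, but 1.2% of that of CALR and none of that of HSPA5, over all libraries. Without them CALR stood at 822 TPM, HSP90B1 at 416 and CANX at 152.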

How the data were processed

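Per the labels and the study's methods, the authors isolated total RNA from MCF10A cells, selected poly(A) RNA, sequenced 10 TruSeq libraries (of a stranded kit by the methods, with no mention of strand in the labels), removed adapters with cutadapt and quantified transcripts with Salmon. The sources used here give no version, strand setting of Salmon or genome build. The authors deposited for each transcript and library an estimated count (reads assigned by expectation, not always whole) and a TPM value (a length-scaled share of all transcripts). Replicates were not pooled.

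Estimated counts were summed per gene and rounded. Chi-square tests between libraries of a group used genes averaging 50 counts or more, whole within 0.001, after which control A with C and B with D were summed. Genes passing filterByExpr (15768) entered edgeR 4.0.16 with TMM normalization (quasi-likelihood test, robust option; R 4.3.3), in 1 fit of 8 samples without covariates, with Benjamini-Hochberg adjustment over all genes tested. Calls needed an adjusted p below 0.05 and a log2 fold change beyond 0.5 either way, as in the study. Intervals are at 95%. CPM were computed on the TMM-scaled library size. The code was tested on simulated data in which 200 genes were changed. Alternatives used DESeq2 1.42.0, other size factors, no filter, other sample sets, a replicate block and length-scaled counts. Gene positions in GRCh37 were taken by gene ID from the GENCODE 44 annotation, and promoters from RefSeq (GRCh38.p14).

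The members and lists were chosen with earlier results of these data known, so that no list is independent evidence. Every member is accounted for; of each other list, up to 4 called genes with the smallest adjusted p are named in each comparison with control or, where none was called, the 2 most abundant. CREB3L4 and single markers were named after their values were seen.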

Additional observations from a re-analysis of the deposited data

Results flagged for a closer look

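In 2 of the 36 genes, 1 MCF10A-TRAM2 library lay far from the other 3. EDEM1 stood at 93.1 CPM in MCF10A-TRAM2 B and at 74.2 to 75.7 CPM in A, C and D, and EIF2AK3 stood at 24.5 CPM in B and at 19.31 to 20.04 CPM in the others. Chance alone would set apart about 1 in 20 groups of 4 by the same criterion. On the second principal component of all genes library B lay at -37.3, away from the other samples, and it had the highest TRAM2 level; it was the highest of the 4 libraries for 14 of the 36 genes and the lowest for 11. Neither gene was called in MCF10A-TRAM2 against control, with library B or without it.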

How the results depend on the processing

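In MCF10A-YAP5SA against control, 30 of the 36 genes kept their call, or the lack of a call, under all 17 alternatives. The exceptions were HERPUD1, SEL1L, EDEM1, DERL2, DDIT3 and ASNS. A change of sign in a gene that was not called was not counted, as in PDIA4 (log2 fold change -0.03 to 0.04). The 11 calls became 8 to 13 over the alternatives with a minimum fold (10 to 13 with 1 sample left out) and 21 at the adjusted p alone; for all genes that last count was 7680. SEL1L was at 0.49 without a filter. In MCF10A-YAP5SA against MCF10A-TRAM2, 32 of 36 kept their call or lack of a call, the exceptions being DERL2, EIF2AK3, DDIT3 and ASNS. There were 8 to 12 calls, or 24 at the adjusted p alone (8078 of all genes). In MCF10A-TRAM2 against control none of the 36 was called under any of 18 alternatives, whereas the 9 calls of all genes became 136 without a filter, 19 with DESeq2, 67 with the 10 libraries kept separate, 25 and 97 in the first and second run alone, 1 with length-scaled counts and 23 at the adjusted p alone. With 1 sample left out they ranged from 3 (without control 2) to 39 (without MCF10A-TRAM2 B), with 19 without MCF10A-TRAM2 A. The cause was not tested. By TPM in place of counts, the spliced share of XBP1 was 67.4% for MCF10A-YAP5SA, 65.4% for MCF10A-TRAM2 and 62.2% for control, since the shorter form gains when divided by length.

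The replicate letters did not pair the samples (correlations of -0.03 to 0.04 between deviations of samples with the same letter). With the letter as a replicate block, 9 of the genes were called in MCF10A-YAP5SA against control over all 10 libraries and 11 in the first run, 9 and 8 against MCF10A-TRAM2, and none in MCF10A-TRAM2 against control, where calls of all genes were 69 and 34.

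With 2 samples in 2 of the groups, and MCF10A-YAP5SA in 1 run, small changes of genes with few counts (DDIT3, SESN2, ERO1B, SDF2L1) were not resolved well.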
